A study of Mus musculus with 39 samples.

Results

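Adipokines are proteins that fat cells release into the blood. The genes described here are the 7 adipokine genes Lep, Adipoq, Retn, Cfd, Rbp4, Nampt and Apln, chosen by name among the 29411 gene names of the array, with every probe that carries 1 of these names, which gave 11 probes. All 7 were read in 39 Agilent 1-colour arrays of subcutaneous adipose tissue from C57BL/6J mice. Mice weaned at 3 to 4 weeks of age were divided into 5 groups of 30 animals. The LFC group (10 arrays) received a low-fat diet with 10% of calories from fat. The HFC group (11 arrays) received a diet high in sucrose with 60% of calories from fat. The HF5, HF20 and HF75 groups (6 arrays each) received the high-fat diet with 5, 20 or 75 µg of KAL-1, an aqueous ethano-botanical formulation. LFC and HFC arrays came from Day 6, Day 10 and Day 14, from Week 0 and, at steps of 3 weeks, from Week 3 to Week 18, HFC also from Day 1, and the KAL-1 groups from Week 3 to Week 18. Weeks were counted from Day 14, so Day 14 and Week 0 are the same time on the diet, each with its own LFC and HFC array. The design text of the series speaks of 3 biological replicates, and the labels of 5 animals taken from each group at a time. Whether an array held 1 of these animals or a pool is not given in the sources used here.

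Leptin, the product of Lep, is released in proportion to stored fat and acts on the hypothalamus to restrain food intake. Adiponectin, from Adipoq, is secreted by mature adipocytes and favours insulin sensitivity. Resistin (Retn) is an adipocyte hormone in the mouse that opposes insulin action, and adipsin (Cfd, complement factor D) is a serine protease that starts the alternative complement pathway. Rbp4 carries retinol in blood, Nampt makes a precursor of NAD and is also found outside cells under the name visfatin, and Apln gives apelin, the ligand of the apelin receptor. Lep, Adipoq, Retn and Cfd are classic products of the differentiated fat cell, while Nampt is made in nearly every cell.

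Every level below is the log2 of the spot's processed intensity minus the log2 75th percentile of its array, so a level of 0 is that percentile and a difference of 1 is a doubling. Values are those of the brightest probe of a gene unless another probe is named. Levels of different probes are not compared with each other. There was 1 array per diet and labelled time point, so the spread in every diet comparison is that of the difference between time points. Day 14 and Week 0 were kept as separate time points, and values with their arrays averaged, a setting chosen after the data were seen, are given where a call or a side of 0.05 depends on it. With Week 12 of the KAL-1 groups, a question of identity remained. In the deposited table of log2 ratios to LFC, the Week 12 HF5 column correlated at 0.66 with the array labelled HF5 and at 1.00 with that labelled HF20, and the HF20 column at 0.66 with its own array and 1.00 with the HF5 array, whereas the other columns correlated at 0.989 or more with the array of their label. The arrays are used as labelled, and values with the pair exchanged are given where they matter.

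The stretches before the start of Lep, Adipoq, Retn and Rbp4 are shown because the levels of these 4 genes moved together over the arrays, as described below. They are the 250 bases before each start in RefSeq's GRCm38.p6, 5′ to 3′ on the strand of the gene, from a table in which all 7 genes were found. RefSeq lists 2 starts for Rbp4, and both are shown. Capitals mark matches on either strand to a CCAAT box, a TATA box, a C/EBP-type site, a nuclear receptor half-site or an E-box, whose letters are spelled out after the sequences. A match is a run of letters, not a measured binding site.
Lep, chr6:29059971-29060220, plus strand: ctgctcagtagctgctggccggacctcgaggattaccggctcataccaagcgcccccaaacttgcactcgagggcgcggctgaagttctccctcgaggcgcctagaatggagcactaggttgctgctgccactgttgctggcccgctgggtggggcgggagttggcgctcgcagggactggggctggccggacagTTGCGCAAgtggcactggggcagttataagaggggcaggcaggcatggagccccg
Adipoq, chr16:23146286-23146535, plus strand: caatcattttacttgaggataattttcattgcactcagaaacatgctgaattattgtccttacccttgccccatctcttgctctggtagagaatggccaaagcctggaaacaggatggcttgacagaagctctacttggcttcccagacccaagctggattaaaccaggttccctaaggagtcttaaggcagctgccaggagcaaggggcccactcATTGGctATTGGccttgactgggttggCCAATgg
Retn, chr8:3655520-3655769, plus strand: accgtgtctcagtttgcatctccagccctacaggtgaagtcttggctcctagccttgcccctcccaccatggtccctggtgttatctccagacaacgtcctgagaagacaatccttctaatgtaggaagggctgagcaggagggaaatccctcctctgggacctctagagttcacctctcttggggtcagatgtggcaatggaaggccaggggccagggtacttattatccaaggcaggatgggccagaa
Rbp4 (start 1), chr19:38125322-38125571, minus strand: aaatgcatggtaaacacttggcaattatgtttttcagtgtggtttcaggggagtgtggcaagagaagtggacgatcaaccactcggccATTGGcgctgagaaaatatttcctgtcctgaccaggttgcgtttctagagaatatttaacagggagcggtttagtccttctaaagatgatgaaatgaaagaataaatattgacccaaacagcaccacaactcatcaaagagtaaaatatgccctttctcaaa
Rbp4 (start 2), chr19:38124812-38125061, minus strand: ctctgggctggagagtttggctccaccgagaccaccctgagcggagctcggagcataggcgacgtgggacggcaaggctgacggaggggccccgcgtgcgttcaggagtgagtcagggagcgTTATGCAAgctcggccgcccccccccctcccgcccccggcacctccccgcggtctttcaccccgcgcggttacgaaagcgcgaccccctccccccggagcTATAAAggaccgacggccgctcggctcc
Lep held 1 match, a C/EBP-type site 55 to 48 bases before its start, and Adipoq held 3 CCAAT matches, 34 to 30, 27 to 23 and 7 to 3 bases before its start. Rbp4 held a CCAAT match before its first start and a C/EBP-type and a TATA match before its second. No match to the 5 motifs lay in the Retn stretch. Among 32851 stretches of the same length, 33.8% held the CCAAT box, searched as CCAAT. The TATA box, searched as TATAAA, was in 12.4%. The C/EBP-type site, with the letters TTGCNNAA, was in 9.56%. The nuclear receptor half-site, written AGGTCA, was in 14.0%. The E-box, given as CACGTG, was in 6.02%. No motif of the 5 was held by all 4 genes.

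Lep was well above background on all 39 arrays and was not saturated on any. Over the 10 LFC arrays its level was -3.23 at the lowest (Week 15), -1.62 at the median and 1.77 at the highest (Week 12). Over the 11 HFC arrays it was -4.35 at the lowest (Week 15), 0.43 at the median and 3.28 at the highest (Day 10). In HFC the level was 3.10 at Week 3, 2.96 at Week 6 and 1.62 at Week 9, against -3.21, -1.92 and -0.99 in LFC at these weeks. These were the weeks of the widest gaps, together with Day 10. By Week 12 the order had turned, with LFC at 1.77 and HFC at -0.28. The highest LFC levels lay well inside the HFC range, so the groups overlapped over all time points.

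Adipoq was saturated on 7 of 39 arrays, where its levels are lower limits, and was not saturated at its HFC highest. Its level ran from 2.03 (Week 15) to 6.39 (Day 6) in LFC, with a median of 4.83, and from 1.12 (Week 15) to 6.63 (Week 9) in HFC, with a median of 4.95. Retn ran from -0.02 to 6.26 in LFC (median 1.98) and from -1.15 to 6.01 in HFC (median 2.79), with the lowest value of each diet at Week 15. Both genes showed wide overlap of LFC and HFC. The second probe of Retn followed the first at a Pearson r of 0.99 over 38 arrays.

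Rbp4 was saturated on 4 arrays. It ran from 1.96 to 6.25 in LFC (median 3.59) and from 0.99 to 6.15 in HFC (median 4.14), where the lowest array was Day 1. Cfd was saturated on 24 of 39 arrays, among them 8 of 11 HFC arrays and 5 of 10 LFC arrays, so most of its values are lower limits set by the scanner. It ran from 4.80 (Week 15) to 8.47 (Week 18) in LFC (median 6.45) and from 3.99 to 7.11 in HFC (median 6.12). Nampt ran from 0.30 to 2.21 in LFC (median 1.71) and from 1.12 to 2.85 in HFC (median 1.95). The second Nampt probe, well above background on 39 of 39 arrays, followed the first at r 0.78 over 38 arrays and ran from -3.36 to -1.26 in LFC (median -2.12) and from -3.33 to -0.41 in HFC (median -1.89). Apln ran from -1.30 to 1.60 in LFC (median 0.28) and from -1.24 to 2.65 in HFC (median 0.74).

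**Figure D1:**
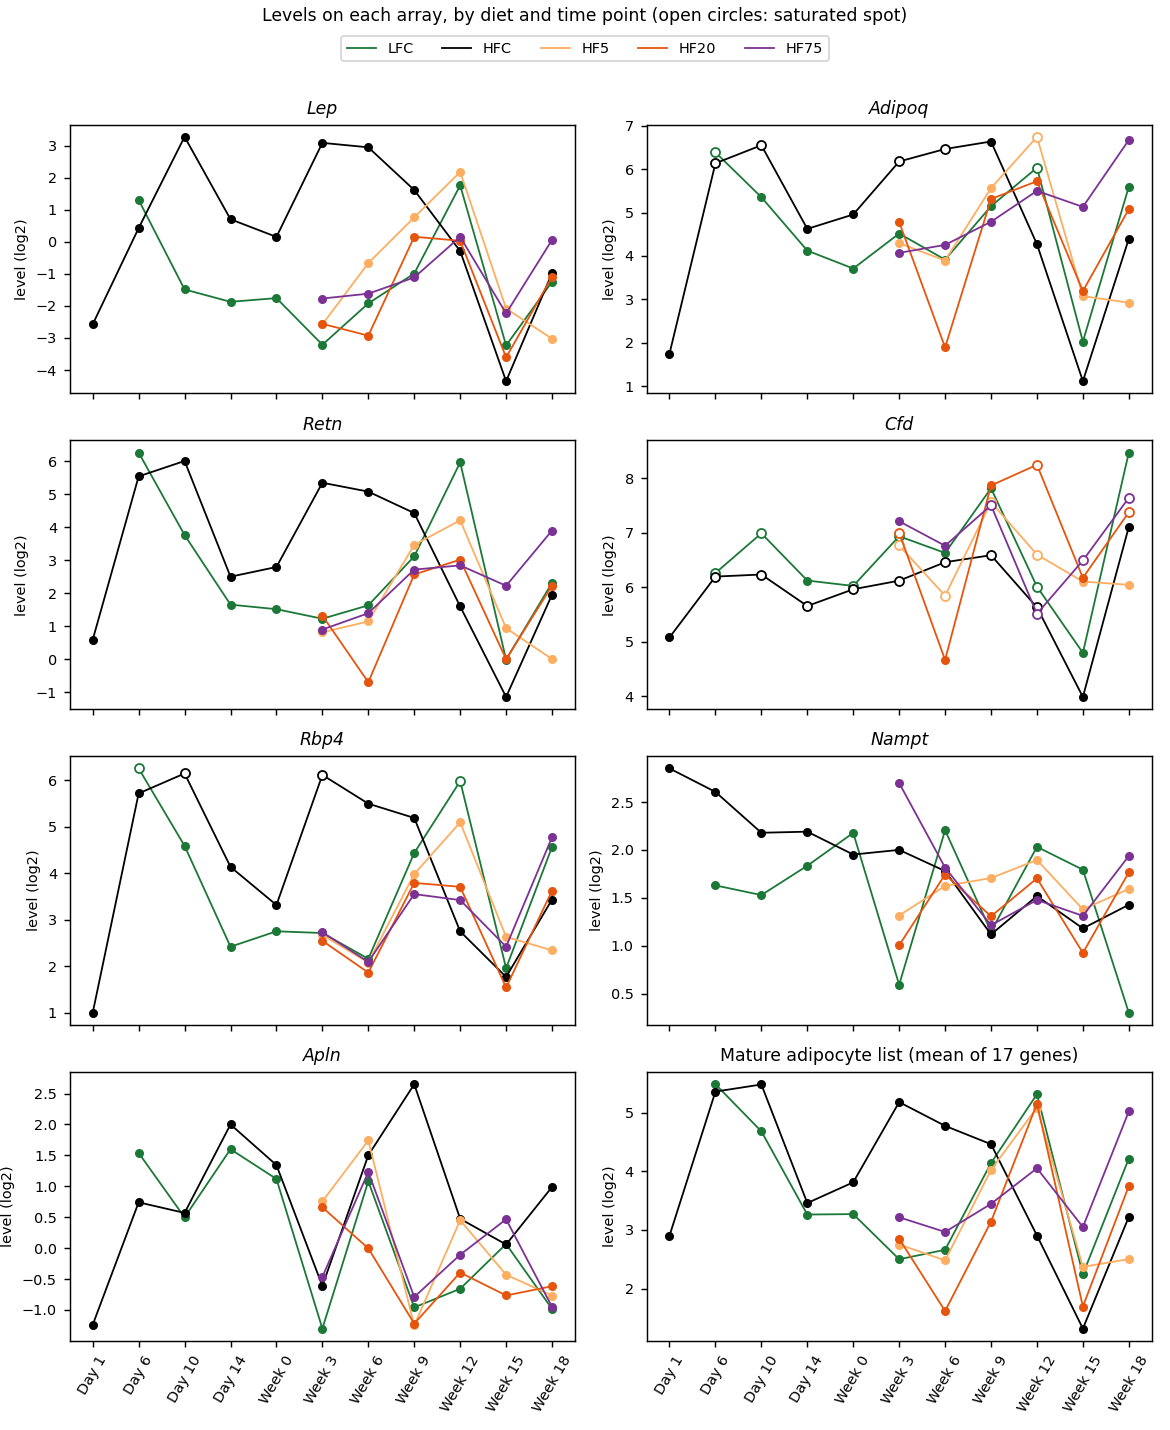
Level (log2 of the intensity over the array's 75th percentile) of each adipokine gene on each array against time point, with 1 line per diet, and the mean of a fixed list of 17 mature adipocyte genes in the last panel. Open circles are saturated spots, which are lower limits; Lep, Adipoq, Retn and Rbp4 follow the adipocyte list, with HFC high at Week 3 and Week 6 and low at Week 15.

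The first comparison asked whether the high-fat diet altered the adipokine transcripts. Over the 10 time points with both diets, Lep was higher in HFC by 1.93 (SE 0.79), 3.80-fold, and was higher at 7 of 10 time points (HFC 0.66 ± 2.31, LFC -1.26 ± 1.66, SD, n = 10 each). The fitted difference of Cfd was -0.61 (SE 0.18), but at 8 of 10 time points at least 1 of its 2 spots was saturated. A direction is therefore read only at Week 15 and Week 18, where Cfd was lower in HFC. Marker lists at these weeks are given below. Apln was higher by 0.77 (SE 0.36) and at 8 of 10, and without Week 9 the difference was 0.46. In limma, none of the 7 passed after adjustment over 19873 genes (adjusted p 0.803 for Lep, Cfd and Apln), where no gene of the array did, and 1165 genes (5.86% of those tested) had an unadjusted p under 0.05. Unadjusted p values were 0.0317 for Lep, 0.00478 for Cfd and 0.0547 for Apln, so 2 of 7 genes were under 0.05, 1 of them Cfd with its scanner-limited values. The second Apln probe gave 1.05 (SE 0.45, unadjusted p 0.0378, adjusted p 0.847 over 27804 probes), so that Apln was on either side of 0.05 by its 2 probes well above background throughout, and the second Nampt probe gave 0.36 (SE 0.23, unadjusted p 0.146). With Day 14 and Week 0 averaged, Lep was higher by 1.89 (unadjusted p 0.0525) and Cfd was at -0.65 (unadjusted p 0.00598), so 1 of 7 was under 0.05. The other 4 were higher in HFC by 0.45 (Adipoq, SE 0.41), 0.67 (Retn, SE 0.69), 0.62 (Rbp4, SE 0.57) and 0.27 (Nampt, SE 0.24), each within 2 SE of 0. Without Week 12 Retn was at 1.23 (unadjusted p 0.0426) and Rbp4 at 1.05 (unadjusted p 0.0493), and without Week 3 they were at 0.28 and 0.32. A saturated spot was present for Adipoq at 5 and for Rbp4 at 4 of the 10 time points, and with such spots set as missing Adipoq was at 0.23 and Rbp4 at 0.84. The median of the 7 differences was 0.62, against -0.04 over all genes tested.

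The Lep difference was not even in time. It was 4.77 at Day 10, 2.58 at Day 14, 1.91 at Week 0, 6.31 at Week 3, 4.88 at Week 6 and 2.61 at Week 9. It was -0.88 at Day 6, -2.05 at Week 12, -1.12 at Week 15 and 0.27 at Week 18. Between Day 10 and Week 9 every difference was positive, and at Day 6 and from Week 12 on none exceeded 0.27. LFC and HFC were scanned on the same day at 8 of 10 time points, the exceptions being Day 6 and Week 12, both with a negative difference. With scan day as block, which takes the difference from those 8 time points, Lep was higher by 2.77 (unadjusted p 0.0044, adjusted p 0.218). The LFC array of Week 3, the low side of the widest gap, had a mean level of 1.30 on a list of 10 lymphocyte genes, the highest of the 39 arrays, whose median was -3.61. HFC minus LFC on this list was -1.21 at Day 10, -6.16 at Week 3, -2.48 at Week 6 and -4.23 at Week 9. It was 0.25 at Day 14 and 0.04 at Week 0. The part of scan day and of these lymphocyte genes in the Lep differences was not tested. Leaving out 1 time point at a time gave a Lep difference between 1.44 and 2.37.

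Genes of the mature adipocyte varied over the same arrays. The mean level of 17 mature adipocyte genes, which contain none of the 7, ran from 1.32 (HFC Week 15) to 5.48 (HFC Day 10 and LFC Day 6), and 16 of the 17 were well above background on all 39 arrays. In these bulk samples fewer fat cells and less transcript per fat cell cannot be told apart. HFC exceeded LFC on this list at 6 of 10 time points, by a mean of 0.22 (SD 1.49). By week the list differed by 2.68 at Week 3, 2.11 at Week 6, -2.41 at Week 12 and -0.92 at Week 15, the same signs as Lep at these weeks, and by -0.99 at Week 18, where Lep had the opposite sign. The part of this list in the Lep difference was not tested. In a setting chosen after the data were seen, in which each level was taken relative to this list, the Lep difference was 1.71 (unadjusted p 0.00469, adjusted p 1.00) where the median of all genes was -0.25. The macrophage list (9 genes) exceeded LFC by 0.76 (SD 0.91) and was higher at 7 of 10 time points.

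For Cfd the scanner ceiling is a measured fact beside the difference. The ceiling of the arrays, their highest intensity on the same scale, was lower in HFC than in LFC by an average difference of -0.59 (SD 0.86). Saturated Cfd spots lay a median of 0.35 and up to 1.16 below the ceiling of their array. The part of the ceiling in the Cfd difference was not tested. Both spots were below saturation at 2 time points, Week 15 and Week 18, where the differences were -0.81 and -1.36. At these weeks the mature adipocyte list differed by -0.92 and -0.99 and the red blood cell list by -0.57 and -1.14. The macrophage list had the opposite sign, at 0.81 and 1.71. The LFC array of Week 18 had the lowest 75th percentile of the arrays (108). The part of these in the Cfd direction was not tested. Under quantile normalization the Cfd difference was -0.13 (unadjusted p 0.483). 

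**Figure D2:**
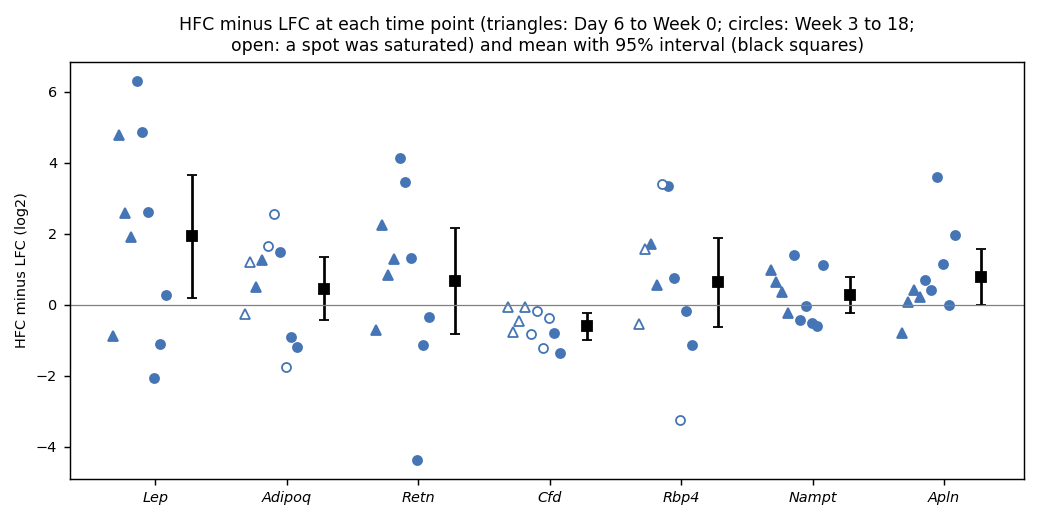
HFC minus LFC (log2) for each adipokine gene. Triangles are Day 6 to Week 0 and circles Week 3 to Week 18, open where a spot was saturated, and black squares are the limma mean with its 95% interval; the Lep interval runs from 0.20 to 3.65 and the Cfd interval, on values that the scanner limited at 8 of 10 time points, from -0.996 to -0.23, while the other 5 include 0.

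Whether the diet difference itself shifted from the early time points (Day 6 to Week 0) to the late ones (Week 3 to Week 18) was tested with an interaction term. By the brightest probes none of the 7 genes had an unadjusted p under 0.05, as 1.89% of the 19873 genes did. Apln was nearest, with a late difference of 1.30 ± 1.32 (SD, n = 6) against -0.03 ± 0.53 early (n = 4), unadjusted p 0.0697 and adjusted p 1.00. By the second Apln probe the late minus early change of the difference was 1.86 (SE 0.78, unadjusted p 0.0352, adjusted p 1.00). The change was -0.28 by the first Nampt probe and -0.89 (SE 0.42, unadjusted p 0.0562) by the second. For Lep the late difference was 1.81 ± 3.35 and the early 2.09 ± 2.33, a change of -0.28 with a 95% interval from -3.99 to 3.43, which is too wide to tell them apart.

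The level of LFC and HFC together was also compared between the periods. Apln was lower late by a difference of -0.98 (SE 0.41), from 1.18 ± 0.54 (n = 8) to 0.19 ± 1.19 (n = 12), and Nampt by -0.59 (SE 0.24), from 2.01 ± 0.35 to 1.42 ± 0.59. Unadjusted p values were 0.0255 and 0.0241 and adjusted ones 0.316 and 0.312, so neither passed, and 13.3% of genes had an unadjusted p under 0.05. The second probes gave -1.23 for Apln (SE 0.50, unadjusted p 0.0237) and -0.80 for Nampt (SE 0.30, unadjusted p 0.0141). In this comparison 44 genes of 19873 passed and none was an adipokine gene. The fit counted the LFC and HFC arrays of a time point as independent, although they share that time point, so the p values can be too small. With time point as a random block, a setting chosen after the data were seen, 1 gene passed, and the unadjusted p was 0.049999 for Apln and 0.0516 for Nampt (adjusted p 0.586 and 0.588). With Day 14 and Week 0 averaged, it was 0.0740 for Apln and 0.0499 for Nampt. Every scan day held arrays of 1 time point, so period and scan day cannot be told apart. The remaining 5 genes had unadjusted p values of 0.228 or higher. Some marker lists of other tissues were lower late as well. The median was -2.40 over 11 skeletal muscle genes, -2.04 over 5 brown fat genes and -2.69 over 3 liver genes. Of these, 6, 3 and 2 had an unadjusted p under 0.05. Other lists were higher late, at 0.65 over 9 macrophage genes (3 with an unadjusted p under 0.05) and 0.66 over 9 lymphocyte genes. The progenitor and fibroblast list was at 0.28 and the 1 keratinocyte gene tested at 0.36. Red blood cell, epithelium and endothelium lists were at -0.49, -0.45 and -0.14. The median was -0.81 over 17 mature adipocyte genes and -0.01 over all genes. Relative to the adipocyte list, the late minus early difference was 0.18 for Nampt and -0.21 for Apln, where the median of all genes was 0.76. Over the 39 arrays Nampt went with the muscle list at r 0.45 and with the lymphocyte list at -0.50, as a description. For Apln these values were -0.27 and -0.39, and it went with the endothelium list at 0.40. The part of these lists in the Apln and Nampt differences was not tested. Over Week 3 to Week 18 with the diets as covariates, the change per week lay between -0.05 (Lep, SE 0.07) and 0.00 (Rbp4), with no unadjusted p under 0.05, where 15.5% of 21087 genes had one and 20 passed, or 1 with time point as a random block. The second Nampt probe had the opposite sign to the first, at 0.03 (SE 0.02) against -0.02 per week.

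The second question was what the diet groups held from Week 3 to Week 18, with all 30 arrays of the 5 diets in 1 fit. HFC exceeded LFC for Apln by 1.30 (SE 0.47, unadjusted p 0.0111), 2.47-fold, at 5 of 6 time points. Lep was higher by 1.81 (SE 0.87, unadjusted p 0.0488), at 4 of 6 weeks. Neither passed (adjusted p 0.850 for both), no gene of the array passed, and 1067 genes (5.06%) had an unadjusted p under 0.05. The Apln difference was 3.61 at Week 9 and 1.97 at Week 18, against -0.01 to 1.13 at the other weeks, and without Week 9 it was 0.84. At Week 9 the lymphocyte, skeletal muscle and brown fat lists differed by -4.23, -4.33 and -4.29 between HFC and LFC. The endothelium list differed by 0.94. The part of these lists in the Apln difference was not tested. The third Apln probe was well above background on 16 of 39 arrays and on 2 of 6 HFC and 0 of 6 LFC arrays of these weeks, so no difference is read from it. The second Apln probe, which followed the first at 0.95, gave 1.79 (SE 0.56). Lep without Week 3 was 0.92 and without Week 6 1.20.

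The order of the late means can be given for each gene. Lep was highest in HFC (0.34 ± 2.83), followed by HF5 (-0.90 ± 2.05), HF75 (-1.08 ± 0.99), LFC (-1.47 ± 1.85) and HF20 (-1.66 ± 1.60, SD, n = 6 each). If HF5 and HF20 traded their Week 12 arrays, the order after HFC became HF75 (-1.08), HF5 (-1.26), HF20 (-1.31) and LFC (-1.47). Retn and Rbp4 were in the order HFC, LFC, HF75, HF5 and HF20, with means from 2.88 to 1.41 and from 4.12 to 2.84. The Rbp4 means of HFC and LFC each held 1 saturated spot and are lower limits, so their order is not fixed. The exchange put HF20 above HF5 for both genes, at 1.60 against 1.56 for Retn and 3.07 against 2.90 for Rbp4. Apln was highest in HFC (0.84 ± 1.15) and lowest in LFC (-0.46 ± 0.89). Nampt had its highest mean in HF75 (1.74 ± 0.55), also after the exchange. That rank rests on the HF75 array of Week 3, at 2.70 against 1.21 to 1.94 at the other weeks. This array had the highest skeletal muscle list of the 39 (7.39), whose part in the Nampt level was not tested. Adipoq had a mean of 5.07 ± 0.95 in HF75, where no spot was saturated, and of 4.84 ± 2.10 in HFC, where 2 of 6 were and the mean is a lower limit. For Cfd, 2 to 4 of 6 spots were saturated in every diet, so its means have no order. For none of the 7 genes were neighbours in the order apart by more than the larger of their SDs, and no pair of diets was free of overlap for any gene.

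The KAL-1 groups were set against HFC at matched weeks to ask what the formulation added to the high-fat diet. The mean of the 3 doses was lower than HFC for Lep by a difference of -1.56 (SE 0.71, unadjusted p 0.0390), for Apln by -0.98 (SE 0.38, unadjusted p 0.0180) and for Rbp4 by -1.08 (SE 0.52, unadjusted p 0.0479). The HFC spot of Rbp4 was saturated at Week 3, and with saturated spots set as missing its difference was -0.59 (unadjusted p 0.218). Cfd had a fitted difference of 0.76 (SE 0.38, unadjusted p 0.0585), from which no direction is read, since it was saturated on 4 of 6 HFC and 11 of 18 dose arrays, while the scanner ceiling was higher in the doses by a mean of 0.50 on the same scale. None passed (adjusted p 1.00 for all 4), no gene of the array did, and 4.48% of 21087 genes had an unadjusted p under 0.05, against 3 of 7 here. By the second Apln probe the difference was -1.26 (SE 0.46, unadjusted p 0.0119, adjusted p 1.00). The other 3 genes differed by -0.24 (Adipoq, SE 0.58, with 2 of 6 HFC spots saturated), -1.05 (Retn, SE 0.72) and 0.07 (Nampt, SE 0.24). The median of the 7 differences was -0.98, and that of all genes 0.02.

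By week, the Lep difference of the doses to HFC was -5.40 at Week 3, -4.69 at Week 6 and -1.68 at Week 9, then 1.08 at Week 12, 1.71 at Week 15 and -0.37 at Week 18. Retn had -4.34, -4.47 and -1.51 in the first 3 of these weeks and 1.76, 2.20 and 0.09 afterwards. Rbp4 had -3.47, where the saturated HFC spot makes the true difference at least as large, -3.49 and -1.41, then 1.33, 0.43 and 0.15. The HFC arrays of Week 3 and Week 6 were the highest of all diets for Lep, Retn and Rbp4, and the HFC array of Week 15 was the lowest for Lep and Retn. Without Week 3 the Lep difference was -0.79 and that of Rbp4 -0.60, and without Week 9, when the HFC array stood at 2.65, that of Apln was -0.43. All 3 doses and LFC are compared with the same 6 HFC arrays, so the differences are not independent of each other. The adipocyte list differed by -0.36 (SD 1.78, higher at 3 of 6 weeks), with -2.24 at Week 3, -2.42 at Week 6, -0.92 at Week 9, 1.86 at Week 12, 1.05 at Week 15 and 0.53 at Week 18. Its part in the differences of Lep, Retn and Rbp4 was not tested. Relative to it the Lep difference was -1.20 (unadjusted p 0.0130, adjusted p 0.934) where the median of all genes was 0.37. The skeletal muscle list (11 genes) was higher in the doses than in HFC at 6 of 6 weeks, by 2.29 (SD 1.60). The lymphocyte list differed by 1.83 at Week 3, 2.18 at Week 6 and 4.01 at Week 9. It differed by 0.01 at Week 12, -1.77 at Week 15 and -1.49 at Week 18. The part of the muscle and lymphocyte lists in the adipokine differences was not tested.

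Dose by dose, HF20 lay furthest below HFC for Lep, at -2.01 (SE 0.87, unadjusted p 0.0308), and for Apln, at -1.23 (SE 0.47, unadjusted p 0.0154), with Rbp4 at -1.28 (SE 0.63, unadjusted p 0.0545), or -0.79 with the saturated Week 3 spot missing. In HF20, 2 of 7 genes had an unadjusted p under 0.05 against 4.22% of all genes. With the Week 12 arrays exchanged, Lep was -1.65 (unadjusted p 0.0757) and Apln -1.09 (unadjusted p 0.0323). For HF5 the Lep difference was -1.24 with a 95% interval from -3.05 to 0.56, and for HF75 -1.43 with an interval from -3.23 to 0.38. By the brightest probes no adipokine gene had an unadjusted p under 0.05 in HF5 or HF75, as 1.36% and 5.02% of all genes did. The second Apln probe gave -0.89 for HF5 (SE 0.56, unadjusted p 0.128), -1.53 for HF20 (SE 0.56, unadjusted p 0.0124) and -1.35 for HF75 (SE 0.56, unadjusted p 0.0251, adjusted p 0.881). By either probe nothing passed after adjustment at any dose. With normexp background correction 7872 genes passed for HF20, where the median of all genes was 0.35, and Rbp4 (-1.78, adjusted p 0.0319) was among them. The 3 intervals overlap widely, and differences among the doses were not tested. The HF20 array of Week 15 carried 4936 spots with an outlier flag against at most 474 on the others, and without Week 15 the HF20 difference in Lep was -2.56. Without Week 6 it was -1.23 (unadjusted p 0.205) and without Week 3 -1.28 (unadjusted p 0.160), and 3 of the 6 values with 1 week left out had an unadjusted p under 0.05. The HF20 difference in Apln was -0.71 (unadjusted p 0.105) without Week 9.

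**Figure D3:**
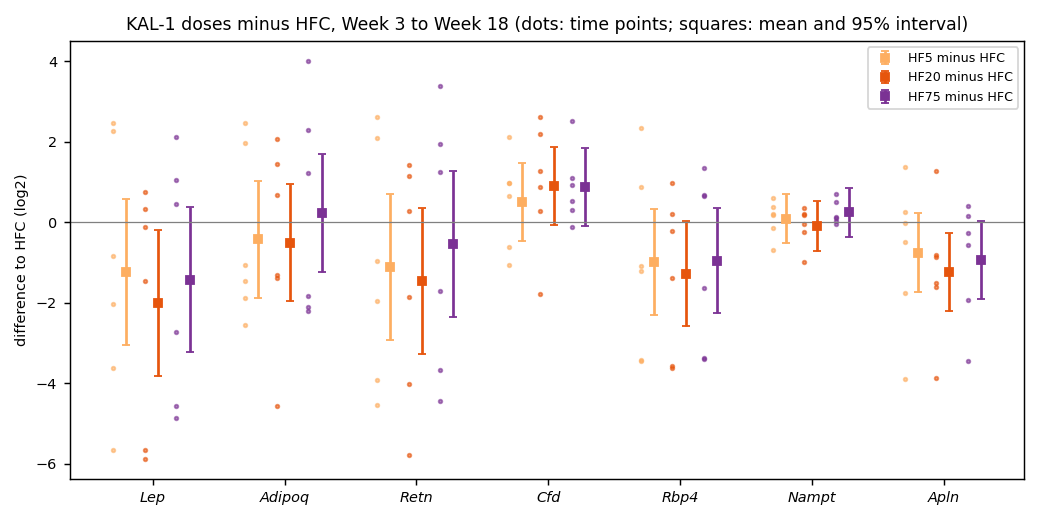
Differences to HFC (log2) of the HF5, HF20 and HF75 groups for each adipokine gene over Week 3 to Week 18, with dots for the single weeks and squares for the limma mean with its 95% interval. The HF20 squares of Lep (-2.01) and Apln (-1.23) have intervals below 0, and all dose intervals of Adipoq and Nampt include 0.

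Across the 39 arrays, Lep, Adipoq, Retn and Rbp4 went up and down together. The 6 pairs of these genes had Pearson r between 0.82 (Lep and Adipoq) and 0.94 (Retn and Rbp4), with Spearman rho from 0.83 to 0.93. Each had a permutation p of 1e-05, the smallest that 100000 resamples can give, and 3.5e-05 after adjustment over 21 pairs. All 39 arrays were shuffled freely, although arrays of a time point share it, so permutation p values can be too small. Removing the time point means left r values from 0.75 to 0.92 over 38 arrays, and without the 2 arrays farthest from the median the range was 0.82 to 0.93. These arrays share tissue content, and the correlations are given as a description. The adipocyte list correlated at 0.84 with Lep, 0.88 with Adipoq, 0.95 with Retn and 0.91 with Rbp4. With Cfd, saturated on 24 of the 39 arrays, it correlated at 0.41, and the red blood cell list correlated with Cfd at 0.76.

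Cfd went with Adipoq at r 0.58 (permutation p 6e-05, adjusted p 0.00018) and with Lep, Retn and Rbp4 at 0.21, 0.32 and 0.33, where adjusted p values were over 0.05. With saturated spots set as missing, 15 arrays remained for Cfd, and r was 0.97 with Adipoq, 0.85 with Lep, 0.88 with Retn and 0.83 with Rbp4. These 15 arrays were picked by the state of the Cfd spot itself. Nampt and Apln had no pair with an adjusted p under 0.05, with r from -0.30 (Cfd and Nampt) to 0.29 (Lep and Nampt).

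**Figure D4:**
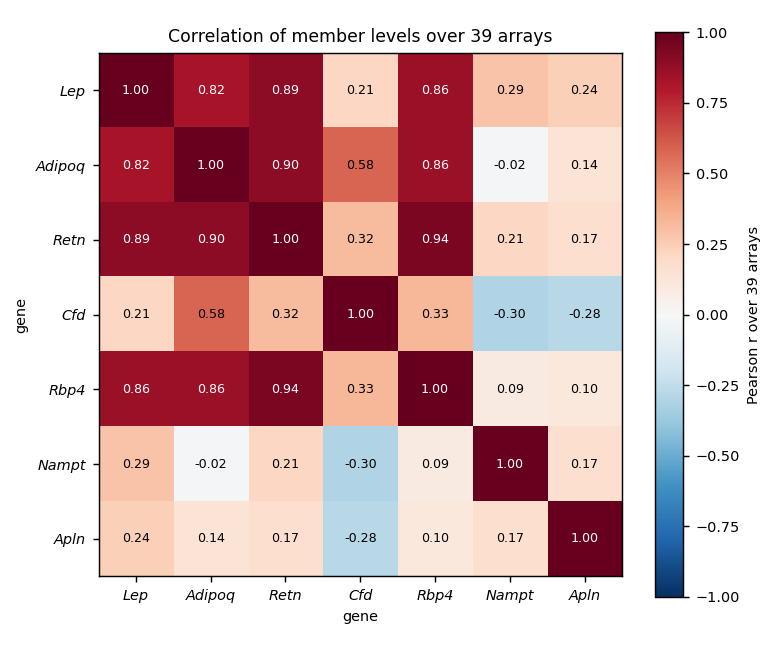
Pearson correlation of the levels of the 7 adipokine genes over 39 arrays, with r printed in each cell. The block of Lep, Adipoq, Retn and Rbp4 lies between 0.82 and 0.94, whereas Nampt and Apln lie below 0.30 with every other gene.

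The genes most like each adipokine in level over the 39 arrays were listed among 17509 other gene names well above background on at least 20 arrays, as a description with no test. They were Nnat (r 0.93), Plin1 (0.90) and Adrb3 (0.90) for Lep, and Adrb3 (0.91), Gm5144 (0.91) and Retn (0.90) for Adipoq. Retn was nearest to Cdo1 (0.98), Aldh1l1 (0.97) and Mmd (0.97), and Rbp4 to Retn (0.94), Mogat1 (0.94) and Mmd (0.94). Cfd was nearest to Chchd2 (0.84), Gm6948 (0.83) and Car3 (0.83). Nampt was nearest to Slc30a9 (0.90), Dedd (0.86) and Ppm1a (0.85), and Apln to Prnd (0.82), Tmc5 (0.80) and Gcgr (0.77). Plin1, which coats the lipid droplet, and Adrb3, the beta-3 adrenergic receptor, are fat-cell genes.

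Of the genes around the adipokines, none passed after adjustment. Among 14 receptors and partners tested, 1 was higher and none lower in HFC at an unadjusted p under 0.05, a share near the 5.86% of all genes. That gene was C3ar1, the receptor of the complement fragment C3a, at 1.00 (SE 0.20, unadjusted p 0.000327), and Cfb, the partner cleaved by adipsin, was at 0.62 (SE 0.29, unadjusted p 0.0568). Among 22 other secreted proteins, 5 were higher and none lower, where 1.96% of all genes were higher, led by Agt, the precursor of angiotensin, at 1.39 (SE 0.33), and Gpx3, a secreted glutathione peroxidase, at 0.98 (SE 0.29). The median of that list was 0.61 against -0.04 for all genes. The lists were chosen with earlier results of these data known, so these counts are a description. Of 12 regulators, none had an unadjusted p under 0.05, and Zfp423 (0.53, SE 0.27) and Irs1 (0.62, SE 0.35) had the smallest.

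Against HFC, the doses together gave 1 higher and 1 lower among 14 receptors and partners, Lepr, the leptin receptor, at 2.11 (SE 1.01) and C3ar1 at -0.84 (SE 0.39). Where 4.48% of all genes had an unadjusted p under 0.05 in either direction and 1.94% were lower, 6 of 23 other secreted proteins were lower and none higher. Among these, Agt (-0.96, SE 0.31) and Lpl, lipoprotein lipase (-0.84, SE 0.28), had the smallest p values. The median of the list was -0.66 against 0.02 for all genes. The late HFC arrays enter both comparisons, so these counts are not independent of those above. Of 9 macrophage genes, 3 were lower at the same threshold and 5 were higher in HFC than in LFC, and their part in the secreted protein counts was not tested. Cebpa (-0.80, SE 0.52) and Ebf1 (-0.33, SE 0.29) led the 12 regulators, none of which had an unadjusted p under 0.05. All adjusted p values in these 2 comparisons were 0.803 or higher.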

How the data were processed

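RNA was labelled with Cy3 and hybridised to Agilent 1-colour arrays. The deposited array files hold processed intensity values per the file headers (scanner units), background-subtracted and not normalized between arrays, made with Feature Extraction (version 9.1 in the submitters' processing notes), with flags of 0 or 1 for spots well above background, saturated or outlying. The deposited series table holds log2 ratios to the LFC array, computed by the authors in GeneSpring GX. For this report log2 intensity minus each array's log2 75th percentile was used, outlier spots were left out, spots of a probe were averaged, and each gene name was represented by its brightest probe. The 75th percentile ran from 108 to 1285 and 49.3% to 87.8% of spots were well above background. No pair of arrays correlated above 0.989, and the number of arrays limits the precision. Genes entered a test if the number of arrays well above background reached the size of the smallest group. The limma package (3.58.1; R 4.3.3) was used for every comparison with time point as block, Benjamini-Hochberg adjustment over all genes, threshold 0.05 and two-sided tests. The period and week effects had diet as covariate and no block. Correlations used 100000 permutations in Python 3.11.15. Which animals an array held is not given in the sources used here, and p-values measure the spread between these arrays, which may be technical. Members and lists were chosen with earlier results of these data known, and the rule named the 7 genes with all probes, the 3 most similar genes of each, and in each of 3 lists the 2 genes with the smallest p. Marker lists for macrophages, lymphocytes, muscle, epithelium, keratinocytes, brown fat, red cells, liver, endothelium and fibroblasts were measured as mean levels.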

Additional observations from a re-analysis of the deposited data

How the results depend on the processing

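Over the 9 comparisons, 63 differences of the 7 genes were recomputed under 1511 alternative values in all, of which 82 had the opposite sign, and 34 of the 63 kept their sign throughout. Of these differences, 1 passed after adjustment under any setting, that of Rbp4 between HF20 and HFC with normexp background correction (-1.78, adjusted p 0.0319), where 7872 genes passed against 0 before and the median of all genes was 0.35. The values below are for results the text gives. HFC minus LFC kept its sign for all 7 genes when 1 time point was left out, and without single time points the Lep difference was 1.44 to 2.37 and the scanner-limited Cfd difference -0.67 to -0.53, while Retn was 0.28 to 1.23 and Rbp4 0.32 to 1.05. Normexp moved the median of all genes to -0.14 for HFC minus LFC and to 0.19 for the doses together, and the array median in place of the 75th percentile moved it to -0.22 for HF20.

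The late minus early change of the Lep difference was 0.35 with array weights and -1.27 to 0.61 with 1 time point left out. The late minus early level of Nampt was 0.18 relative to the mature adipocyte list, a setting chosen after the data were seen. For the mean of the doses, Adipoq was 0.65 with saturated spots missing, 0.42 with array weights, 0.12 relative to the adipocyte list and -0.82 to 0.34 with 1 week left out, and Nampt was -0.11 with normexp and -0.0045 with the array median. The third Apln probe, well above background on 2 of 6 HFC and 3 of 6 HF20 arrays, gave 0.37 for HF20, from which no sign is read. The change per week of Rbp4 was 0.0017 with normexp, 0.0185 with saturated spots missing, 0.0014 with slide as a random block and -0.0377 to 0.0528 with 1 week left out, and that of Lep was -0.134 to 0.0265. With 1 week left out the doses' mean for Lep was -2.21 to -0.79, for Apln -1.36 to -0.43 and for Rbp4 -1.56 to -0.60.

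The number of genes that passed for late minus early level was 44, and became 3 with normexp, 74 with the array median, 23 with no filter, 7 with the filter on every array, 11 with the unmoderated comparison, 270 with array weights, 0 relative to the adipocyte list, 18 with Day 14 and Week 0 averaged and 1 with time point as a random block, both chosen after the data were seen, and 3 to 157 with 1 time point left out. For change per week it was 20, and became 1 with normexp, 33 with the array median, 3 with no filter, 4 with the mean of all probes, 489 with array weights, 1 with slide and 1 with time point as a random block, 0 relative to the adipocyte list and 0 to 2894 with 1 week left out, the highest without Week 3. For the mean of the doses it was 0, and 1 with array weights. The causes were not tested. Slide as a random block could not be fitted for the 3 comparisons over 20 arrays. Saturation of Cfd, on 24 of 39 arrays, and 1 array per diet and time point limit what these arrays can show.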

Other observations

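Markers of other cell types were measured as mean levels on the same arrays, and their part in the adipokine differences was not tested. Macrophage genes differed by 0.76 (SD 0.91, n = 10) between HFC and LFC and by -0.74 (SD 0.81, n = 6) between the doses and HFC, where they were higher at 1 of 6 weeks. The lists of adipocyte progenitor and fibroblast (0.16, SD 1.16), mammary and simple epithelium (0.03, SD 1.33) and endothelium (-0.24, SD 1.08) had smaller mean differences between HFC and LFC. Brown fat genes differed by -1.21 (SD 2.11) and were higher in HFC at 2 of 10 time points, skeletal muscle genes by -0.59 (SD 2.06), lymphocyte genes by -1.07 (SD 2.52), red blood cell genes by -0.41 (SD 0.80), skin keratinocyte genes by -0.48 (SD 1.098) and liver genes by 0.85 (SD 3.98). The liver difference was 8.93 at Day 14, where the HFC array had the highest liver level of all (3.97), and -6.44 at Week 18. None of the 5 keratinocyte and 4 liver genes was well above background on all arrays.

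Between the doses and HFC, red blood cell genes differed by 0.48 (SD 0.67) and skin keratinocyte genes by 0.50 (SD 0.61), each higher at 5 of 6 weeks, as were endothelium genes at 0.21 (SD 1.04). Lymphocyte genes differed by 0.79 (SD 2.27), brown fat genes by 0.68 (SD 1.87), epithelium genes by 0.20 (SD 1.12), progenitor and fibroblast genes by -0.05 (SD 1.43) and liver genes by -0.09 (SD 1.80).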
